A study of Mus musculus with 8 samples.

Results

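The 9 genes described here encode receptors through which circulating hormones and local peptides set the tone of an artery: the angiotensin II receptors Agtr1a and Agtr1b, the endothelin receptors Ednra and Ednrb, the alpha-1 adrenergic receptors Adra1b and Adra1d, the vasopressin receptor Avpr1a, and the natriuretic peptide receptors Npr1 and Npr3. They were chosen by name, and all 9 were found among 23993 gene symbols. RNA sequencing was run on thoracic aortas of 8 male C57BL/6 mice, 24 weeks old. The Tsc1 knockout group held 4 mice with floxed alleles at both copies of Tsc1 (Tsc1fl/fl.Myh11-CreERT2.mT/mG), and the control group held 4 mice with wild-type Tsc1 (Myh11-CreERT2.mT/mG). Every mouse of both groups carried Myh11-CreERT2, a tamoxifen-inducible Cre driven by a smooth muscle promoter, and the mT/mG fluorescent reporter, and every mouse received tamoxifen at 1.5 weeks. Cells without Myh11 promoter activity kept Tsc1, and the extraction protocol describes crushed whole vessels, with no cell sorting, although the labels name smooth muscle cells. The numbered samples of a group are taken as separate mice, and if they were not, the p-values reflect technical spread alone.

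Agtr1a, Agtr1b, Ednra, Ednrb, Adra1b, Adra1d and Avpr1a are receptors with a heptahelical fold. In smooth muscle the angiotensin, endothelin A, alpha-1 adrenergic and vasopressin V1a receptors couple mainly to G proteins of the Gq and G11 class, which activate phospholipase C, release calcium from internal stores and cause contraction, and several of them also activate RhoA through G12 and G13. Ednrb sits mainly on endothelium in large arteries, where it leads to nitric oxide release and clears endothelin. Npr1 is itself a guanylyl cyclase that makes cGMP when atrial or B-type natriuretic peptide binds, which relaxes smooth muscle, whereas Npr3 has no cyclase domain and removes the peptides from the circulation.

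Levels are in FPKM, fragments mapped per kilobase of a transcript and corrected for library size as the authors computed them, and group values are means ± SD (n = 4 each). Differences are on the log2(FPKM + 1) scale, knockout minus control, and come with their SE (standard error) and adjusted p from limma, which fits a linear model to all genes at once. The test covered 12107 genes, those averaging 1 FPKM or more across both groups, and "called" means that the adjusted p (Benjamini-Hochberg) was below 0.05. Tsc1 had 2.99, 3.58, 3.37 and 3.71 FPKM in knockouts 1 to 4, against 4.03, 4.82, 4.95 and 6.32 FPKM in controls 1 to 4 (log2 difference -0.44, SE 0.12, limma adjusted p = 0.019), and all knockouts lay below all controls, though the call was lost within the odd- or the even-numbered libraries alone. Relative depth, read from low values, ran from 0.758 to 1.34 in knockouts and from 1 to 2.43 in controls. The second principal component of all tested genes, with 16.6% of the variance, set libraries 1 and 3 apart from libraries 2 and 4 in both genotypes. The labels name no batch, so values within the odd-numbered and within the even-numbered libraries are given beside the pooled ones. This split was read from these same data. P-values within it, for its interaction or with it as a covariate are therefore descriptive only. The 10 smooth muscle markers summed to between 11746 and 15851 FPKM in knockouts, against 17965 to 18398 FPKM in controls, with 6 of 10 lower and 0 higher. The 11 endothelial markers summed to between 141 and 208 FPKM in knockouts, against 261 to 340 FPKM in controls, with 8 of 10 tested lower and 0 higher. The 8 adventitial fibroblast markers summed to between 409 and 583 FPKM in knockouts and between 529 and 835 FPKM in controls, with 3 of 8 lower. Beside these marker counts, 15.0% of all tested genes were called lower and 17.1% higher. None of the 67 markers of the 9 cell type lists was at 0 in all libraries. In whole vessels fewer cells of a type and less RNA per cell cannot be told apart, and the part of these markers in the receptor values was not tested.

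Of the 9 receptors 7 reached the mean of 1 FPKM and were tested, while Agtr1b and Avpr1a lay below it. Npr1 rose and Agtr1a fell, and the other 5 tested receptors were not called. Over all tested genes 32.2% were called, 17.1% as higher and 15.0% as lower, so 2 calls among 7 tested receptors are a share close to that of all genes. Groups did not overlap for 3 of the 7, Npr1 with every knockout above every control and Agtr1a and Adra1d with every knockout below, against 33.9% of all tested genes. The median log2 difference was -0.37 over the 7 receptors and 0.01 over all tested genes. The number of lower receptors was 2 without knockout 2 (Adra1d added) and 3 without knockout 4 (Adra1d and Adra1b added). When the libraries were scaled to equal FPKM sums without small RNA rows, 2956 genes were higher and 1344 lower, against 2074 and 1819 as deposited, and the receptor calls were the same 1 higher and 1 lower.

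**Figure D1:**
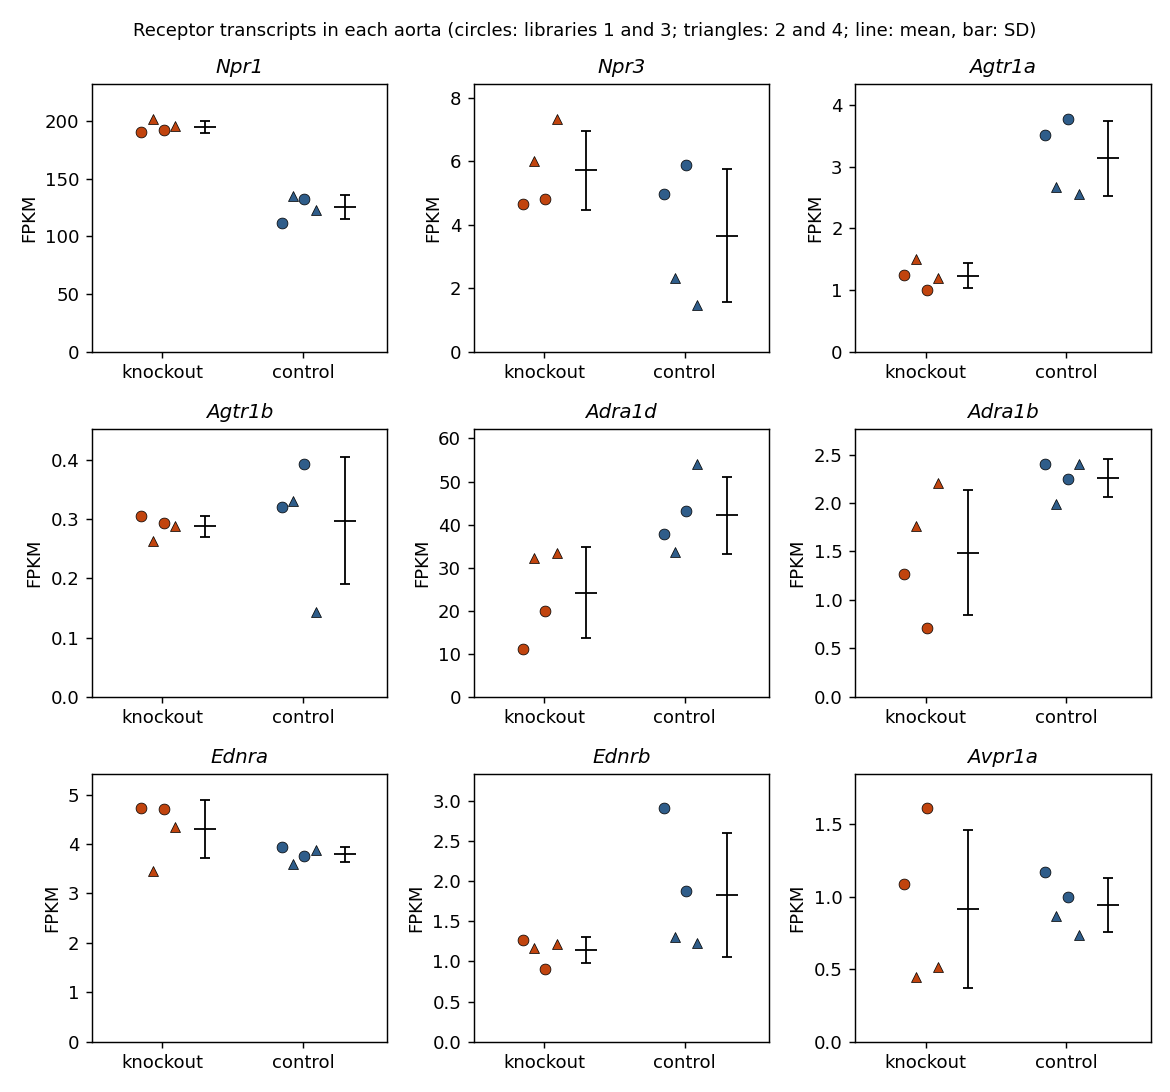
FPKM of the 9 receptors in each library, knockouts left and controls right, on linear axes that start at 0. Points are single aortas, circles for libraries 1 and 3 and triangles for 2 and 4, and the line and bar beside them are the mean and SD of 4. Npr1 lies between 190 and 202 FPKM in knockouts, above all controls, and Agtr1a lies at or below 1.49 FPKM in knockouts, below all controls.

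Npr1 (ENSMUSG00000027931, chromosome 3, 90450591 to 90465866 on the minus strand in mm10, 22 coding exons) was the most abundant of the 9 receptors in every library. It had 190, 202, 192 and 196 FPKM in knockouts 1 to 4, against 112, 135, 132 and 123 FPKM in controls 1 to 4. The 4 knockouts were close together and all above the highest control. Npr1 thus averaged 195 ± 5.28 FPKM in knockouts and 126 ± 10.5 FPKM in controls, and it rose by a log2 difference of 0.64 (SE 0.07, limma adjusted p = 0.000271). The difference was 0.65 within the odd-numbered and 0.62 within the even-numbered libraries, and 0.58 to 0.67 when any 1 library was left out. Npr1 is known to be expressed in smooth muscle and endothelium, and the summed markers of both were lower in the same knockout libraries. Their part in the Npr1 values was not tested.

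Because Npr1 was the receptor that rose, the 250 bases before its annotated start are shown, from RefSeq (GRCm38.p6, chr3:90465867-90466116, minus strand, 5′ to 3′). Capitals mark GGGCGG, the core of a GC box, and CCAAT, each searched on both strands and here read from the opposite strand:

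Npr1: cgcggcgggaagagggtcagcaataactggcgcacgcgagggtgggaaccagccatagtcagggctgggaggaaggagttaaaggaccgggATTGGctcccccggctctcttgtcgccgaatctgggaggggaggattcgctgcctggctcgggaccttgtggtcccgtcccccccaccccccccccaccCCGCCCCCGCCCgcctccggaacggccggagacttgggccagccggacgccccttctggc

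The 300-base window of this gene, 250 bases before the start and 50 after it, has 69.7% G and C, at or above the value of 90.4% of the 32851 promoter windows in the table. It holds GGGCGG in 2 places, 35.7% of all windows holding at least 1, and CCAAT in 1 place, which 37.4% of all windows hold. CACGTG, the palindromic letters that MiT/TFE factors bind, was found in none of the 8 windows of the 7 receptors in the table, against 7.15% of all windows. The CArG box, the element bound by serum response factor in many contractile genes, was found in none of the 8 either, against 1.63% of all windows. Among these 8 windows GGGCGG was otherwise found in 1 of the 2 windows of Adra1b. Npr3 had the window poorest in G and C, at 39% (8.92% of all windows had as little or less). Agtr1a and Adra1d have no entry in the table.

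Npr3 (ENSMUSG00000022206, chromosome 15, 11839896 to 11907287, minus strand), the clearance receptor, had 4.66, 6.03, 4.82 and 7.35 FPKM in knockouts 1 to 4, against 4.98, 2.32, 5.87 and 1.47 FPKM in controls 1 to 4. The groups overlapped, since controls 1 and 3 lay as high as the knockouts while controls 2 and 4 lay below all of them. The mean was 5.72 ± 1.25 FPKM in knockouts and 3.66 ± 2.1 FPKM in controls (log2 difference 0.63, SE 0.31, limma adjusted p = 0.156), which is no call, and leaving out any 1 library gave 0.36 to 0.86. The genotype differences within the odd- and the even-numbered libraries were unlike. Among even-numbered libraries Npr3 averaged 6.69 FPKM in knockouts and 1.9 FPKM in controls (1.42, adjusted p = 0.00851 in limma on those 4 libraries), and among odd-numbered libraries 4.74 FPKM in knockouts and 5.43 FPKM in controls (-0.16, adjusted p = 0.305). The interaction of genotype with odd or even number was -1.58 (limma adjusted p = 0.0233). That call, which 1.62% of tested genes reached, was lost with no filter on low values (limma adjusted p = 0.0679). The split came from these same data, so these p-values are descriptive. Fat cells are known to express much Npr3, and their markers summed to between 388 and 646 FPKM in knockouts and to 1078, 499, 395 and 474 FPKM in controls 1 to 4. Their part in the Npr3 values was not tested. Within a library Npr1 stood at 40.8, 33.5, 39.8 and 26.7 times the FPKM of Npr3 in knockouts 1 to 4, and at 22.5, 58.2, 22.5 and 83.3 times in controls 1 to 4. The controls spread over a wider range than the knockouts on both sides.

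The angiotensin receptor Agtr1a (ENSMUSG00000049115, chromosome 13, 30336441 to 30382867, plus strand) fell. It had 1.25, 1.49, 0.995 and 1.19 FPKM in knockouts 1 to 4, against 3.51, 2.68, 3.78 and 2.56 FPKM in controls 1 to 4. The highest knockout stayed well below the lowest control. The means were 1.23 ± 0.206 FPKM in knockouts and 3.13 ± 0.605 FPKM in controls, a ratio of 0.394, and the log2 difference was -0.88 (SE 0.12, limma adjusted p = 0.000993), a scale that understates the change of so low a gene. It fell by 1.13 within the odd-numbered and by 0.63 within the even-numbered libraries, and leaving out any 1 library gave -0.95 to -0.81. Adventitial fibroblasts also express angiotensin receptors, and 3 of their 8 markers (Pi16, Clec3b and Serpinf1) were called lower, against 15.0% of all tested genes. The other markers were not called and were divided in direction. Pdgfra (0.26), Lum (0.38) and Col14a1 (0.34) lay above 0, and Dpt (-0.26) and Dpp4 (-0.41) below it. The sums of all 8 fibroblast markers, given above, overlapped between the groups only in that knockout 1, at 583 FPKM, exceeded control 2, at 529 FPKM. Their part in the Agtr1a values was not tested.

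Agtr1b (ENSMUSG00000054988, chromosome 3, 20314473 to 20367177, minus strand), the duplicate that rodents carry beside Agtr1a, was near the floor in all libraries. It had 0.306, 0.263, 0.295 and 0.289 FPKM in knockouts 1 to 4, against 0.321, 0.33, 0.394 and 0.144 FPKM in controls 1 to 4. Its mean was 0.288 ± 0.0181 FPKM in knockouts and 0.297 ± 0.107 FPKM in controls, and the groups overlapped (log2 difference -0.01, exact two-sided permutation p = 0.971 over 70 assignments, the smallest possible being 0.0286). The ratio of Agtr1a to Agtr1b was 4.09, 5.68, 3.38 and 4.13 in knockouts 1 to 4, against 11, 8.1, 9.58 and 17.8 in controls 1 to 4. All knockouts had a lower ratio than all controls.

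Whether the low Agtr1b values are its own depends on how fragments shared with Agtr1a were assigned, which is not given in the sources used here. Each gene has a single coding exon, and the coding sequences, both 1077 bases long without the stop codon, are identical at 978 positions (90.8%). The longest run without a mismatch is 66 bases, and 33 of 1028 windows of 50 bases of Agtr1a occur unchanged in Agtr1b. That run with 30 bases on either side is shown from the GENCODE M21 transcripts (GRCm38), as chr13:30380998-30381123 on the plus strand for Agtr1a and chr3:20316271-20316396 on the minus strand for Agtr1b, 5′ to 3′. Capitals mark the 6 mismatches:

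Agtr1a: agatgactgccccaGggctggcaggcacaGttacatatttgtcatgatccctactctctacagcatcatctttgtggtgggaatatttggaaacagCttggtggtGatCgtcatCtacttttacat
Agtr1b: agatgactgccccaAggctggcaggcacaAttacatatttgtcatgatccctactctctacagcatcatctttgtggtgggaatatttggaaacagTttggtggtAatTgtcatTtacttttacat

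No other pair came near this. The longest shared run was 12 bases for Ednra and Ednrb, 20 for Adra1d and Adra1b and 11 for Npr1 and Npr3, and none of these pairs shared a window of 50 bases. Exons of an annotated gene on the opposite strand overlap those of 4 receptors, Npr1, Npr3, Ednra and Adra1d. The strand setting of the counting is not given in the sources used here, so reads from those partners cannot be told apart from the receptors' own.

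Adra1d (ENSMUSG00000027335, chromosome 2, 131545850 to 131562283, minus strand), the alpha-1D receptor that mediates much of the noradrenaline contraction of the mouse aorta, ranked after Npr1 in every library. It had 11.1, 32.2, 20 and 33.3 FPKM in knockouts 1 to 4, against 37.8, 33.6, 43.1 and 54.2 FPKM in controls 1 to 4. No knockout reached the lowest control, but knockouts 2 and 4 lay just beneath it. The means were 24.2 ± 10.6 FPKM in knockouts and 42.1 ± 8.91 FPKM in controls, a ratio of 0.573, and the log2 difference of -0.87 (SE 0.32) missed the threshold (limma adjusted p = 0.0642). It was -1.37 within the odd-numbered libraries (adjusted p = 0.0149) and -0.37 within the even-numbered ones (adjusted p = 0.261). The interaction with library number was not called for it (adjusted p = 0.27). With a covariate for odd and even numbers the same difference passed (limma adjusted p = 0.0278). Adra1d passed without knockout 2 (-1.04, adjusted p = 0.0474) or without knockout 4 (-1.06, adjusted p = 0.0413), and stood at -0.56 without knockout 1.

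Adra1b (ENSMUSG00000050541, chromosome 11, 43774606 to 43901210, minus strand), the alpha-1B receptor, had 1.27, 1.76, 0.706 and 2.21 FPKM in knockouts 1 to 4, against 2.41, 1.99, 2.25 and 2.4 FPKM in controls 1 to 4. The first 3 knockouts lay below every control and knockout 4 lay among them. Its mean was 1.48 ± 0.646 FPKM in knockouts and 2.26 ± 0.196 FPKM in controls (log2 difference -0.43, SE 0.18, limma adjusted p = 0.102). The order of the 4 knockouts was alike for both adrenergic receptors in that libraries 2 and 4 had more than libraries 1 and 3. The log2 difference of Adra1b was -0.76 within the odd-numbered libraries (adjusted p = 0.0255) and -0.1 within the even-numbered ones, and it passed without knockout 4 (-0.56, adjusted p = 0.0364). Adra1d stood at 8.8, 18.3, 28.3 and 15.1 times Adra1b in knockouts, against 15.7, 16.9, 19.2 and 22.6 times in controls, with overlap.

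Ednra (ENSMUSG00000031616, chromosome 8, 77663031 to 77724464, minus strand), the endothelin A receptor of smooth muscle, had 4.72, 3.46, 4.7 and 4.34 FPKM in knockouts 1 to 4, against 3.94, 3.59, 3.76 and 3.87 FPKM in controls 1 to 4. Knockouts 1, 3 and 4 lay above every control and knockout 2 below every control. The means were 4.31 ± 0.59 FPKM in knockouts and 3.79 ± 0.152 FPKM in controls (log2 difference 0.14, SE 0.09, limma adjusted p = 0.266), with 0.24 within the odd-numbered and 0.05 within the even-numbered libraries. Ednra was thus not called, nor was it called when knockout 2 was left out (0.22, adjusted p = 0.0512).

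Ednrb (ENSMUSG00000022122, chromosome 14, 103814625 to 103844402, minus strand) had 1.27, 1.17, 0.91 and 1.22 FPKM in knockouts 1 to 4, against 2.91, 1.31, 1.88 and 1.23 FPKM in controls 1 to 4. Knockout 1 alone was above the lowest control, control 4. The means were 1.14 ± 0.159 FPKM in knockouts and 1.83 ± 0.773 FPKM in controls (log2 difference -0.37, SE 0.18, limma adjusted p = 0.144). Within the odd-numbered libraries the difference was -0.69 (adjusted p = 0.047), and within the even-numbered ones -0.05 (adjusted p = 0.783). Without control 1 it was -0.2. Endothelial cells and Schwann cells are known to express Ednrb, and 8 of 10 endothelial and 3 of 4 Schwann cell and neuron markers tested were lower in knockouts. Of all tested genes 15.0% were called lower. Sox10, Gfra3 and Cdh19 of the Schwann cell and neuron list averaged under 1 FPKM and were not tested. The Schwann cell and neuron markers summed to 11.1, 6.03, 10.8 and 8 FPKM in knockouts 1 to 4, against 16.5, 11.1, 13.5 and 10.7 FPKM in controls 1 to 4, and their part in the Ednrb values was not tested. The ratio of Ednra to Ednrb was 3.73, 2.96, 5.17 and 3.56 in knockouts, against 1.36, 2.75, 2 and 3.14 in controls, so only knockout 2 fell within the range of the controls.

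Avpr1a (ENSMUSG00000020123, chromosome 10, 122448499 to 122453452, plus strand), the V1a vasopressin receptor, had 1.09, 0.449, 1.61 and 0.513 FPKM in knockouts 1 to 4, against 1.17, 0.869, 1 and 0.738 FPKM in controls 1 to 4. Its means hardly differed, 0.914 ± 0.544 FPKM in knockouts and 0.945 ± 0.186 FPKM in controls (log2 difference -0.06, exact two-sided permutation p = 0.83 over 70 assignments). The spread among knockouts followed the library numbers, with an average of 1.35 FPKM in knockouts 1 and 3 and 0.481 FPKM in knockouts 2 and 4. In controls the odd-numbered libraries averaged 1.09 FPKM and the even-numbered ones 0.804 FPKM. Being under the mean of 1 FPKM, Avpr1a was not part of the interaction test.

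**Figure D2:**
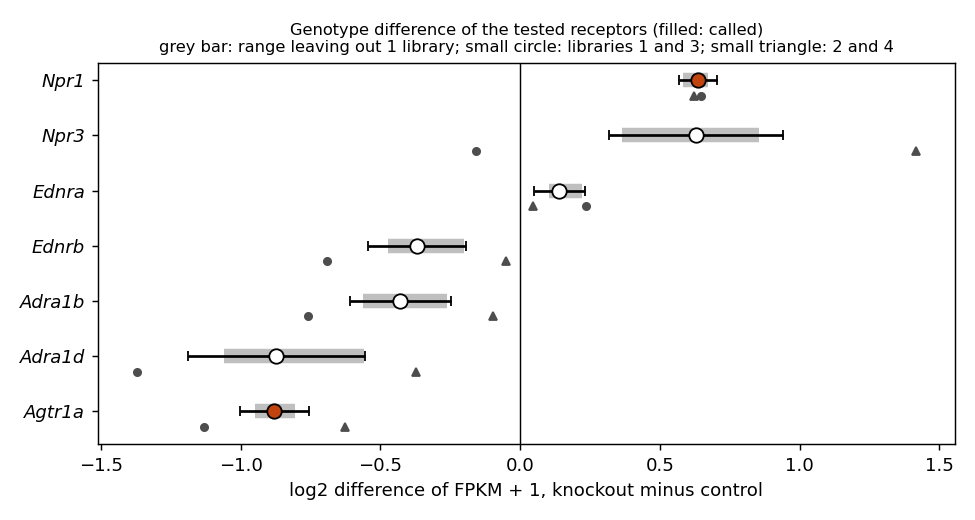
Log2 difference of FPKM + 1 (knockout minus control) of the 7 tested receptors. Large points are the differences over 8 libraries with their SE, filled where called, grey bars span the values with any 1 library left out, and the small circles and triangles are the differences within libraries 1 and 3 and within libraries 2 and 4. Npr1 (0.64) has the smallest SE and matching values within both sets of libraries, whereas Npr3 runs from -0.16 to 1.42.

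FPKM are per length, so levels can be ordered across the receptors. In knockouts the order of mean levels was Npr1, Adra1d, Npr3, Ednra, Adra1b, Agtr1a, Ednrb, Avpr1a and Agtr1b. The ranges of Npr3 and Ednra overlapped, as did those of each neighbouring pair between Adra1b and Avpr1a. In controls the order was Npr1, Adra1d, Ednra, Npr3, Agtr1a, Adra1b, Ednrb, Avpr1a and Agtr1b, with overlap between Ednra and Npr3, Npr3 and Agtr1a, and Adra1b and Ednrb. Agtr1a thus ranked above Adra1b in controls, with no overlap, and below it in knockouts, within its range. Npr1 alone made up 88.1%, 81.2%, 84.9% and 79.5% of the summed FPKM of the 9 receptors in knockouts 1 to 4, against 66.3%, 74.4%, 68.1% and 64.8% in controls 1 to 4. The lowest knockout share exceeded the highest control share. Adra1d made up 5.15%, 12.9%, 8.85% and 13.5% of the sum in knockouts and 22.4%, 18.4%, 22.2% and 28.6% in controls, again without overlap and in the other direction.

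Of 28 genes that supply, activate or remove the ligands, 16 were tested, 4 rose, 0 fell and 12 were not called, against 17.1% higher and 15.0% lower over all tested genes. Their median log2 difference was 0.19 (without control 3, 1 gene was called lower). The 2 monoamine oxidases, mitochondrial enzymes that break down noradrenaline and related amines, both rose. Maob had 43.6, 35.6, 43.4 and 37 FPKM in knockouts 1 to 4, against 18.2, 13.4, 15.5 and 13.1 FPKM in controls 1 to 4 (log2 difference 1.36, SE 0.11, limma adjusted p = 8.79e-05). Maoa averaged 19.2 ± 1.66 FPKM in knockouts and 9.86 ± 0.266 FPKM in controls (0.89, SE 0.07, limma adjusted p = 6.07e-05). For both enzymes every knockout was far above every control. Corin, the protease that cuts the precursor of atrial natriuretic peptide, had 2.29, 4.77, 1.49 and 3.29 FPKM in knockouts, against 0.672, 0.382, 0.463 and 0.13 FPKM in controls (1.43, SE 0.25, limma adjusted p = 0.00279). Corin averaged 0.412 FPKM in controls, so it passed the filter of 1 FPKM only through the knockouts. Enpep, aminopeptidase A, which trims angiotensin II, averaged 10.3 ± 3.27 FPKM in knockouts and 6.03 ± 1.25 FPKM in controls (0.66, limma adjusted p = 0.0492). Its call was lost without knockout 1, 3 or 4 and without any 1 control, and it was 1.2 within the odd-numbered and 0.12 within the even-numbered libraries. With all libraries kept, the Enpep call was also lost without the filter or with it at 0.3 FPKM (limma adjusted p = 0.0812 and 0.0521). Median-of-ratios scaling, quantile scaling, a fit without the trend and a replicate block lost it too. Ace, the angiotensin-converting enzyme, averaged 174 ± 33 FPKM in knockouts and 152 ± 13.3 FPKM in controls without a call (0.17, limma adjusted p = 0.355), and Edn1, which encodes endothelin-1, averaged 7.52 ± 1.61 FPKM in knockouts and 10.2 ± 4.12 FPKM in controls (-0.34, limma adjusted p = 0.336). Agt, Avp, Nppb and the noradrenaline synthesis genes Th and Dbh were among the 12 with a mean under 1 FPKM.

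Nppa, which encodes atrial natriuretic peptide, the ligand of Npr1, split the knockouts. It had 150, 0.203, 0.208 and 187 FPKM in knockouts 1 to 4, against 0.353, 0.168, 0.252 and 0.222 FPKM in controls 1 to 4. Knockouts 2 and 3 thus lay among the controls, and the log2 difference of 3.51 (SE 1.7) was not called (limma adjusted p = 0.147). Knockouts 1 and 4 were also the libraries with the most transcripts of heart muscle. A list of 5 such genes that was added after the values were seen (Myl7, Sln, Myh6, Tnni3 and Nkx2-5) summed to 129 and 86 FPKM in knockouts 1 and 4, to 6.33 and 11.2 FPKM in knockouts 2 and 3, and to between 4.72 and 11.1 FPKM in controls. Control 4 stood apart for the 8 striated muscle markers, which summed to 214 FPKM there. They summed to 11.9, 11.8 and 12 FPKM in controls 1 to 3, and to between 4.03 and 10.5 FPKM in knockouts. Without control 4 the log2 difference was 0.36 for Npr3 and -0.75 for Adra1d. The part of heart tissue in the Nppa and receptor values, and that of striated muscle in the receptor values, was not tested. Npr1 had 190 and 196 FPKM in knockouts 1 and 4, and 202 and 192 FPKM in knockouts 2 and 3. Without knockouts 1 and 4 it had a log2 difference of 0.65 (limma adjusted p = 0.00669) and Agtr1a one of -0.88 (limma adjusted p = 0.0169). Of the ligand genes Corin, Maob and Maoa kept their calls there, at 1.44, 1.34 and 0.87, and Enpep did not.

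**Figure D3:**
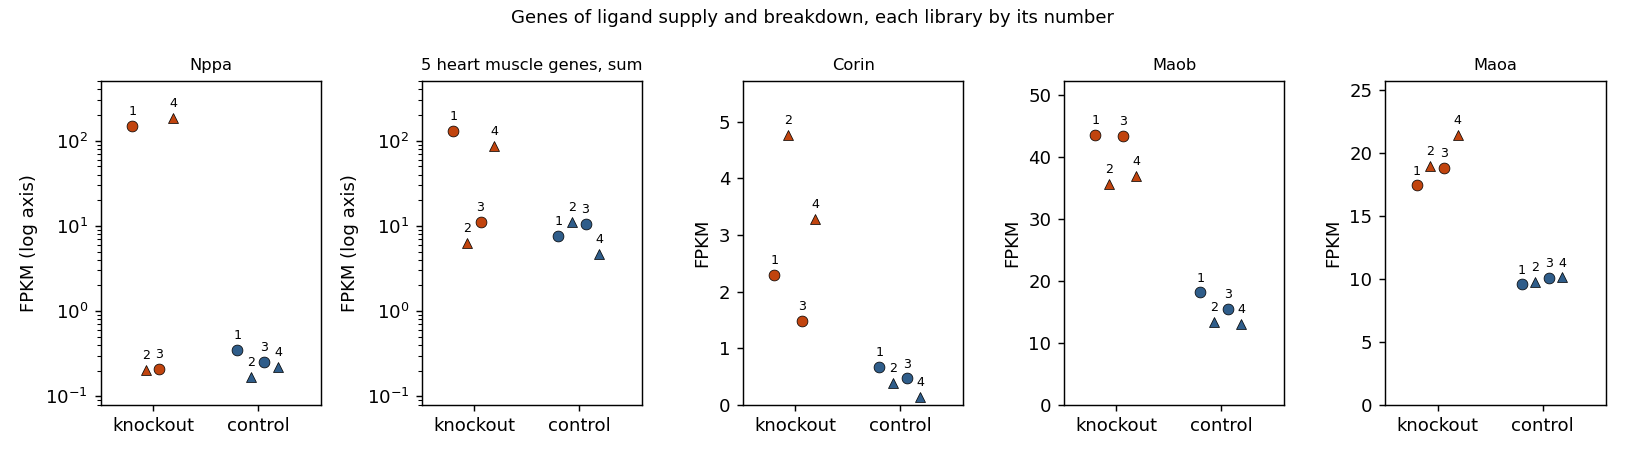
FPKM of Nppa, of the sum of 5 heart muscle genes, and of Corin, Maob and Maoa in each library, knockouts left and controls right, with the library number beside each point. The 2 panels on the left have a log axis and the other 3 start at 0. Nppa reaches 150 and 187 FPKM in knockouts 1 and 4, the libraries with 129 and 86 FPKM of heart muscle transcripts, and is under 1 FPKM elsewhere.

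Among 36 other receptors for vasoactive hormones, 17 were tested, of which 4 rose, 4 fell and 9 were not called (median log2 difference -0.26), beside 17.1% higher and 15.0% lower among all tested genes. Among those tested, the largest change was that of Drd1a, the dopamine D1 receptor, with 3.61, 2.53, 4.14 and 2.21 FPKM in knockouts 1 to 4, against 0.325, 0.517, 0.235 and 0.328 FPKM in controls (1.59, SE 0.16, limma adjusted p = 0.000219). Drd1a averaged 0.351 FPKM in controls, so it passed the filter of 1 FPKM only through the knockouts. Chrm3 lay under the filter and was not tested. It averaged 0.547 FPKM in knockouts and 0.0624 FPKM in controls, with every knockout above every control. Calcrl and its partners moved in opposite directions. Calcrl, which binds calcitonin gene-related peptide when paired with Ramp1 and adrenomedullin when paired with Ramp2, averaged 22.9 ± 2.75 FPKM in knockouts and 11.2 ± 3.07 FPKM in controls (0.99, SE 0.17, limma adjusted p = 0.00244). Ramp2 averaged 46.7 ± 6.74 FPKM in knockouts and 87.6 ± 10.2 FPKM in controls (-0.9, SE 0.12, limma adjusted p = 0.000714). Ramp1 averaged 63 ± 4.43 FPKM in knockouts and 77 ± 6.88 FPKM in controls (-0.28, limma adjusted p = 0.0248), a call lost without knockout 3 or 4 or control 1 or 3. Endothelium, where Ramp2 is abundant, had the lower marker sums given above in the same libraries, and their part in the Ramp2 values was not tested.

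The presynaptic and vascular adrenergic receptor Adra2a averaged 0.935 ± 0.27 FPKM in knockouts and 2.86 ± 1.53 FPKM in controls (log2 difference -0.92, limma adjusted p = 0.0265). Its call was lost without knockout 1, 2 or 3 or control 2. Adra2c, also an alpha-2 receptor, went the other way, with 1.51 ± 0.318 FPKM in knockouts and 0.944 ± 0.168 FPKM in controls (0.36, limma adjusted p = 0.0489). Every Adra2c value in knockouts was above every control, but the call was lost without knockout 1, 2 or 3 or any 1 control. F2rl1, a receptor opened by proteases, averaged 0.504 ± 0.144 FPKM in knockouts and 1.56 ± 0.391 FPKM in controls (-0.76, limma adjusted p = 0.00311). Its mean across both groups, 1.03 FPKM, lay just above the filter of 1 FPKM, and its highest knockout had 0.699 FPKM. F2rl1 kept its call in the 18 alternative fits that tested it, but the other alternatives did not test it. Npr2, the guanylyl cyclase receptor of C-type natriuretic peptide and the closest relative of Npr1 among the listed genes, had 56.3, 56.5, 55.3 and 52.1 FPKM in knockouts, against 39.8, 49.6, 41.4 and 51.1 FPKM in controls (0.28, limma adjusted p = 0.0394). Every knockout was above every control, but the call was lost without any 1 knockout or without control 1 or 3. Of this list, 2 genes in place of 4 were higher without knockout 1, 2 or 3 or control 1 or 3, and 2 in place of 4 were lower without knockout 3 or control 1 or 3.

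Downstream of the receptors, 23 of 25 G protein and effector genes were tested, with 5 higher, 4 lower, 14 not called and a median log2 difference of -0.01. Calls among these genes were near the 32.2% of all tested genes. Gnaq, the alpha subunit through which most of these receptors contract smooth muscle, had 23.3, 23.3, 22.6 and 23.1 FPKM in knockouts 1 to 4, against 33.5, 30.7, 30.2 and 30.8 FPKM in controls (-0.42, SE 0.05, limma adjusted p = 0.000525). The knockouts were almost identical to each other and far below the controls. Its close relative Gna11 was not called (62.7 ± 1.68 FPKM in knockouts and 66.7 ± 3.95 FPKM in controls). Of the phospholipase genes Plcb1 averaged 6.31 ± 0.37 FPKM in knockouts and 7.86 ± 0.629 FPKM in controls (-0.27, limma adjusted p = 0.0173), a call lost within the even-numbered libraries, with equal FPKM sums and without knockouts 1 and 4. The more abundant Plcb4 (68 ± 16.9 FPKM in knockouts and 76.2 ± 3.65 FPKM in controls, limma adjusted p = 0.377) and Plcb3 (32.7 ± 1.8 FPKM in knockouts and 32.2 ± 2.78 FPKM in controls, limma adjusted p = 0.845) were not called. Both subunits that lead to RhoA rose, Gna12 with 49.7 ± 3.73 FPKM in knockouts and 37.2 ± 3.23 FPKM in controls (0.41, limma adjusted p = 0.00558) and Gna13 with 13.6 ± 0.57 FPKM in knockouts and 11.1 ± 0.352 FPKM in controls (0.27, limma adjusted p = 0.00549). Within the odd-numbered libraries alone neither was called, and Gna13 was not called within the even-numbered ones either. Itpr2 (-0.28) and Gnas (-0.19) were the other lower genes, and with quantile normalization the difference of Gnas was 0.14. The Itpr2 call was lost without knockout 1, 3 or 4 or control 1, 2 or 4, and that of Gnas without knockout 1 or 3 or control 1 or 4. Arhgef12, the exchange factor that Gna12 and Gna13 use to load RhoA, averaged 61.3 ± 3.51 FPKM in knockouts and 38.8 ± 1.37 FPKM in controls (0.65, SE 0.06, limma adjusted p = 0.00012). The rest of this arm in the list was not called. Rhoa stood at -0.02, Rock1 at -0.13, Rock2 at -0.04 and Arhgef1 at 0.06 (limma adjusted p = 0.747, 0.438, 0.727 and 0.614). Arhgef11 (0.32) and the inositol trisphosphate receptor Itpr3 (0.3) were called higher over 8 libraries, but the calls were lost without knockout 2 or 3 or control 1 or 3 for Arhgef11, and for Itpr3 without knockout 1, 2 or 3 or control 1, 3 or 4. The number of higher genes was 3 without knockout 2 or 3 or control 1 or 3, and the number of lower genes was 2 without knockout 1 or 3 or control 4.

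**Figure D4:**
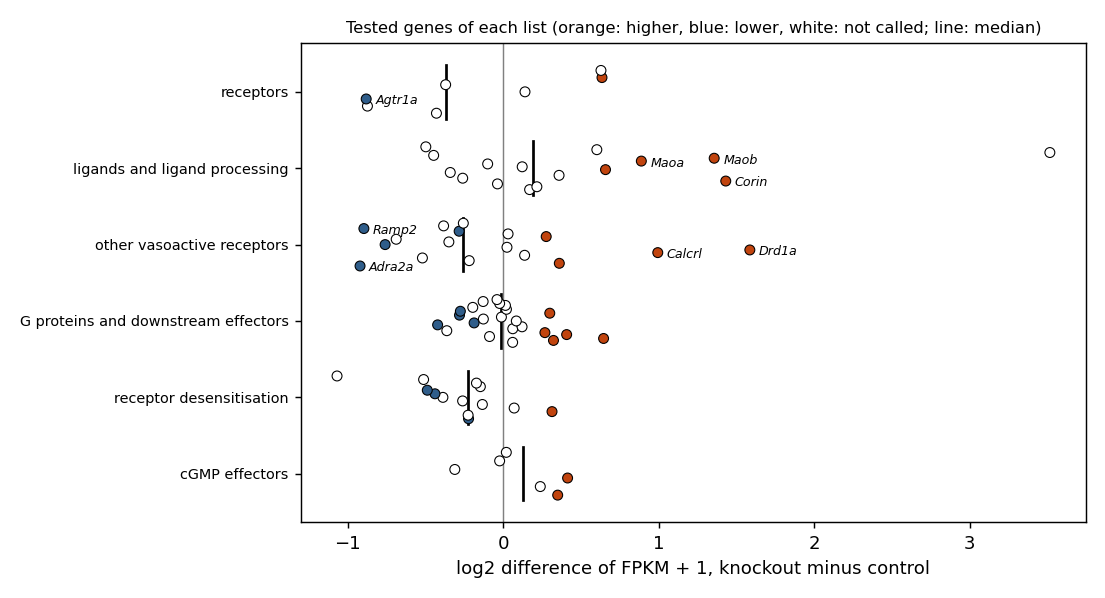
Log2 difference of FPKM + 1 (knockout minus control) of each tested gene of the receptors and of the 5 further lists, with 1 point per gene, orange where higher, blue where lower and white where not called, and a line at each median. The called genes with a difference beyond 0.8 are named, and the white point at 3.51 is Nppa.

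Among 14 genes that desensitise or bind the receptors, 13 were tested, 1 rose, 3 fell and 9 were not called (median log2 difference -0.22), again near the 32.2% called over all tested genes. Both of the receptor kinases called fell, Grk6 with 13.2 ± 0.895 FPKM in knockouts and 18.3 ± 1.78 FPKM in controls (-0.44, limma adjusted p = 0.00376) and Adrbk1 with 28.8 ± 2.03 FPKM in knockouts and 33.7 ± 1.12 FPKM in controls (-0.22, limma adjusted p = 0.0257). Rgs10, which speeds up GTP hydrolysis by G proteins, also fell (-0.49, limma adjusted p = 0.0303). The Adrbk1 call was lost without knockout 2 or 4 or control 3 or 4, and that of Rgs10 without knockout 2, 3 or 4 or control 1, 3 or 4, and 1 gene in place of 3 was lower without knockout 2 or 4 or control 3 or 4. Agtrap, a protein that binds the tail of the Agtr1a receptor and promotes its internalisation, averaged 13.6 ± 1.55 FPKM in knockouts and 10.7 ± 0.452 FPKM in controls (0.31, SE 0.08, limma adjusted p = 0.0172), a call lost within the even-numbered libraries alone. Rgs5, a smooth muscle regulator of Gq signalling, had 34.6, 206, 51.9 and 252 FPKM in knockouts 1 to 4, against 232, 182, 253 and 174 FPKM in controls 1 to 4, and was not called (-1.07, limma adjusted p = 0.201). Knockouts 1 and 3 were far below every other library, and the interaction of genotype with library number was -2.84 (limma adjusted p = 0.00635). They were also the lowest libraries for Adra1d and Adra1b, but there the interaction was not called (limma adjusted p = 0.27 and 0.216). Of 7 genes that act after cGMP, 6 were tested and 2 were called, a share like the 32.2% of all tested genes. Both rose, the cGMP phosphodiesterase Pde5a (61.5 ± 12.2 FPKM in knockouts and 45.3 ± 3.46 FPKM in controls, log2 difference 0.41, limma adjusted p = 0.0416) and Mrvi1, a kinase substrate that restrains calcium release (143 ± 16.9 FPKM in knockouts and 111 ± 6.48 FPKM in controls, 0.35, limma adjusted p = 0.0165). The Pde5a call was lost without knockout 2 or 4 or any 1 control, leaving 1 gene. Prkg1, the cGMP-dependent kinase itself, averaged 11.7 ± 1.51 FPKM in knockouts and 11.9 ± 1.47 FPKM in controls (-0.02, limma adjusted p = 0.894).

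For each tested receptor the 3 tested genes with the most similar profile over the 8 libraries were listed, by Pearson's r of log2(FPKM + 1), as a description of shared libraries and shared genotype difference. The r of these 21 genes ran from 0.939 to 0.996. Agtr1a was most like Mfap5 (a microfibril protein), Lrrfip1 and Zyx (a focal adhesion protein), all 3 lower in knockouts. Npr1 was most like Atp6v0d1 (a subunit of the lysosomal proton pump), Farp2 and Dip2b, all 3 higher in knockouts. The profile of Adra1d was closest to Lig3, Arhgap32 and Dicer1, and that of Adra1b to Ldoc1l, Ston2 and Pecr, and none of these 6 was called. Ednra was nearest to Pgap3, Ube2e2 and AI507597, Ednrb to Sub1, Hspa12a and Fxyd2, and Npr3 to Eif2s1, Spata5 and Cops8. Of these 9 only AI507597 was called (log2 difference 0.79, limma adjusted p = 0.0467), and without knockout 1, 3 or 4 or any 1 control it was not.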

How the data were processed

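The authors deposited 1 FPKM value per gene and library for 4 Tsc1 knockout and 4 control aortas. TopHat2, Cufflinks, Cuffdiff and mm10 are named, without versions or roles, per the submitters' processing notes. Annotation and strand setting: not given in the sources used here. The deposited FPKM were compared as log2(FPKM + 1), without further scaling. The test, for the 12107 genes averaging 1 FPKM or more, was limma (version 3.58.1, under R 4.3.3), with lmFit and eBayes with a trend, two-sided, genotype as the only term. The fit was tested on simulated data with independent noise in each library, which did not carry the split between odd and even numbers. The 2 receptors under 1 FPKM were compared by exact permutation. Absolute depth is unknown, because the table gives no counts; relative depth is the commonest ratio to control 1 among values under 0.3 FPKM. Named genes were up to 5 called genes per list with the largest differences and the 3 most similar genes per receptor. Npr2, Ramp1, Adra2c, Chrm3, Gna11, Gna13, Gnas, Itpr2, Plcb1, Plcb3, Plcb4, Arhgef1, Rhoa, Rock1, Rock2, Prkg1, Ace, Edn1, Nppa and Rgs5 were added after their values were seen. Members and lists were chosen with earlier results of these data known. All 9 receptor symbols matched GENCODE M21 (GRCm38, the assembly of mm10), and 7 matched the RefSeq promoter table.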

Additional observations from a re-analysis of the deposited data

Results flagged for a closer look

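Npr3 had a genotype difference that differed between library numbers, with an interaction (odd minus even) of -1.58 on the log2 scale (limma adjusted p = 0.0233), a call that was lost when no filter on low values was applied (adjusted p = 0.0679). Ace and Rgs5 did so too, with interactions of 0.67 (adjusted p = 0.0199) and -2.84 (adjusted p = 0.00635). For Rgs5, knockouts 1 and 3 lay below every control, and knockouts 2 and 4 lay within the range of the controls. The odd and even numbers are no group of the study, and what they stand for was not tested. The split was read from these same data, so the interaction p-values are descriptive.

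Control 1 stood apart from the other controls for 2 G protein genes. Gnaq had 33.5 FPKM there against 30.2 to 30.8 in the other controls, and Gna12 had 32.4 FPKM against 38.4 to 39.3. These are 2 of 84 groups of 4 checked, and chance alone flags about 1 in 20.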

How the results depend on the processing

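Npr1 and Agtr1a kept their calls and directions in all 22 alternatives, with log2 differences of 0.58 to 0.72 for Npr1 and -1.27 to -0.63 for Agtr1a. Of 62 gene results, 30 kept direction and call in every alternative in which they were tested. Among these 30, F2rl1 was tested in only 18 alternatives and Nppa in 21. The cause of the changes below was not tested, except that fits on fewer libraries have fewer residual degrees of freedom. No list or receptor count moved by over 1.5 times with either pseudocount, the filter at 0.3 FPKM, median-of-ratios scaling or without the trend.

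Replicate numbers were not taken as pairs, because the labels tie them to nothing shared and 1 of the 4 same-number correlations of deviations (0.0656, 0.138, 0.135 and 0.173) was under 0.1. Of the knockouts, 1, 2 and 3 correlated best with controls 3, 4 and 1 (0.149, 0.16 and 0.141). With the replicate block 2349 genes were higher and 2122 lower, 2 receptors were lower (Adra1d added), 2 other vasoactive receptors were higher and 5 desensitisation genes were lower. With a covariate for odd and even numbers 2 receptors were lower (Adra1d added). Within the odd-numbered libraries 4 receptors were lower, and 7 ligand genes, 3 G protein genes and 1 cGMP gene were higher. Within the even-numbered libraries 2 receptors and 2 other receptors were higher, 2 G protein genes were higher and 1 lower, 0 desensitisation genes were higher and 6 lower, and 2 ligand genes were lower. Without a filter 1 cGMP gene was higher and 1 lower, 2 G protein genes were lower, and 92 genes had an interaction with library number, against 196. Quantile scaling and library weights each left 1 cGMP gene higher, and equal sums without small RNA rows left 1 G protein gene lower. Without knockouts 1 and 4, chosen after seeing the data, 1113 genes were higher and 971 lower, with 2 other receptors higher and 2 lower, 3 G protein genes higher and 1 lower, and 1 cGMP gene higher.

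With any 1 library left out, 1686 to 1871 genes were higher and 1456 to 1607 lower; 1 receptor was higher and 1 to 3 were lower. Higher and lower genes numbered 3 to 5 and 0 to 1 for ligands, 2 to 3 and 2 to 4 for other receptors, 3 to 5 and 2 to 4 for G proteins, 1 and 1 to 4 for desensitisation, and 1 to 2 and 0 for cGMP effectors. Directions turned for Npr3 (-0.16) and Eif2s1 (-0.0024) within odd-numbered libraries, for Rgs5 (0.35), Ace (-0.17) and Edn1 (0.0074) within even-numbered ones, and for Gnas (0.14) with quantile scaling. Agtr1b and Avpr1a lay under 1 FPKM, and absolute depth is unknown.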
